A study of Mus musculus with 9 samples.

Results

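The 10 genes described here encode the lipases that break down stored and circulating triglyceride, with the proteins that switch them on or off. They were taken from the deposited table of 54393 genes by symbol: Pnpla2, Lipe, Mgll, Lipa, Lipc and Lpl for the lipases, and Abhd5, G0s2, Plin5 and Abhd15 for their control. All 10 had 1 row each and passed the filter on low counts, with between 145 (Lpl) and 13204 (Lipa) counts in a library. The genes were chosen by symbol and role, with the fold changes and p-values of antibiotics against control from an earlier fit in view, those of Lipe and Abhd15 among them. The values given here therefore describe these libraries and are not independent evidence that the set responds.

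The study sequenced liver RNA from mice of the strain labelled C56Bl/6j, all fed the purified diet AIN-76a. In 4 libraries (replicates 1, 2, 3 and 5) the mice had received antibiotics that are not absorbed, given to deplete the gut microbiota, and 5 libraries (replicates 1 to 5) came from conventional mice without antibiotics. The comparison asks which liver transcripts differ once the microbiota is depleted. The labels used here give neither the antibiotics, their dose and duration, nor the animals' age or feeding state, nor whether a library stands for 1 mouse. Library totals ran from 28156248 to 49628737 estimated counts in controls and from 15422891 to 59179622 with antibiotics, where library 5 had more counts than any other library and libraries 1, 2 and 3 had fewer than any control.

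Triglyceride in a lipid droplet is taken apart stepwise. Adipose triglyceride lipase (Pnpla2) removes the first fatty acid, hormone-sensitive lipase (Lipe) acts mainly on the diacylglycerol left behind and also on cholesteryl and retinyl esters, and monoacylglycerol lipase (Mgll) splits the last ester bond. Abhd5, a hydrolase-fold protein without lipase activity of its own, activates Pnpla2, G0s2 inhibits it, and Plin5 coats droplets and holds Abhd5 and Pnpla2 there. In the liver, lipolysis supplies fatty acids for oxidation and for nuclear receptor signalling, and Lipe is far better known from fat tissue and steroid-producing cells than from hepatocytes. Lipa is the acid lipase of lysosomes, while Lipc and Lpl act outside the cell on lipoproteins.

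Lipe and Abhd15 were the 2 members whose transcripts were called by edgeR, both higher in the livers of antibiotics-treated mice. Lipe went from 13.3 ± 2.25 (SD, n = 5) to 22.3 ± 3.20 (SD, n = 4) CPM, the read count normalised to a TMM-scaled library size. Abhd15 went from 24.9 ± 2.73 to 43.3 ± 1.38 CPM. None of the 10 was called lower. Called means an adjusted p under 0.05 in edgeR's quasi-likelihood fit, adjusted by Benjamini-Hochberg over all 14873 tested genes, of which 2.68% were called, 1.63% higher and 1.05% lower. The members' median log2 fold change was 0.19, against -0.01 over all tested genes, and 7 of 10 had an unadjusted p under 0.05, against 18.5% of tested genes. Since the set was named with this contrast known, these shares are given as description only.

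The windows around the RefSeq start sites of Lipe and Abhd15 are shown because these genes were called together. Each holds 250 bases before and 50 bases after an annotated start on GRCm38.p6, 5′ to 3′ on the gene's strand, with capitals marking the motif matches found in it. Lipe has a pair of starts in that annotation, the upstream window at chr7:25395938-25396237 and the downstream window at chr7:25390063-25390362, both on the minus strand. The Abhd15 window is at chr11:77514867-77515166 on the plus strand.
Lipe, upstream start: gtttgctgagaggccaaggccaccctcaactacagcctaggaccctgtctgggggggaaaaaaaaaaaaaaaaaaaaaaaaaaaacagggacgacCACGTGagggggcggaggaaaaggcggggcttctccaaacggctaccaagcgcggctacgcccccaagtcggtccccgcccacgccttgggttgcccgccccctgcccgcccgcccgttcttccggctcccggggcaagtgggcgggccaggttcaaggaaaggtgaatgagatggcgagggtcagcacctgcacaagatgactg
Lipe, downstream start: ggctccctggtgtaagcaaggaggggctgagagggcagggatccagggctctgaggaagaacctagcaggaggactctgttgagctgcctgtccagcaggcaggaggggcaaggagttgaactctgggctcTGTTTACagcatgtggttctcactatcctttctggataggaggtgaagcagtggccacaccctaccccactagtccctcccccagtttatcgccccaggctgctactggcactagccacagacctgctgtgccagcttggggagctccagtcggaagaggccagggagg
Abhd15: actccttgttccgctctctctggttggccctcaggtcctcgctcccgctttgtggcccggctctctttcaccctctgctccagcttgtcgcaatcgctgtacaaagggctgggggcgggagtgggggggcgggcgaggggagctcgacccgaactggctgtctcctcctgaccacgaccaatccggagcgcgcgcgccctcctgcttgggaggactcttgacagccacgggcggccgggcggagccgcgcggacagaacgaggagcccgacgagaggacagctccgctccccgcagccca
The motifs searched on both strands were CACGTG (an E-box, read by clock and other basic helix-loop-helix factors), TTATGNAA (D-box core), the direct-repeat PPAR element, TGACGTCA (cAMP element) and GTAAACA (FOXO core, TGTTTAC on the other strand). The upstream Lipe window held a CACGTG that begins 155 bases before the start, a motif present in 7.15% of all 32851 windows of this length. The downstream Lipe window held the FOXO core on the reverse strand, 119 bases before the start, against 3.65% of all windows. The Abhd15 window held none of the 5 motifs. Of all windows, 3.38% held the D-box core, 1.79% the cAMP element and 0.0396% the PPAR element. Most windows lack these motifs, so their absence says little about a gene. Among the other members with a window, 1 of the Mgll windows held an E-box and a FOXO core, and those of Pnpla2, Abhd5, G0s2, Lipa, Lipc and Plin5 held none. A match is a run of letters and not evidence of binding. The counts are per gene, so they do not say which start was used.

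**Figure D1:**
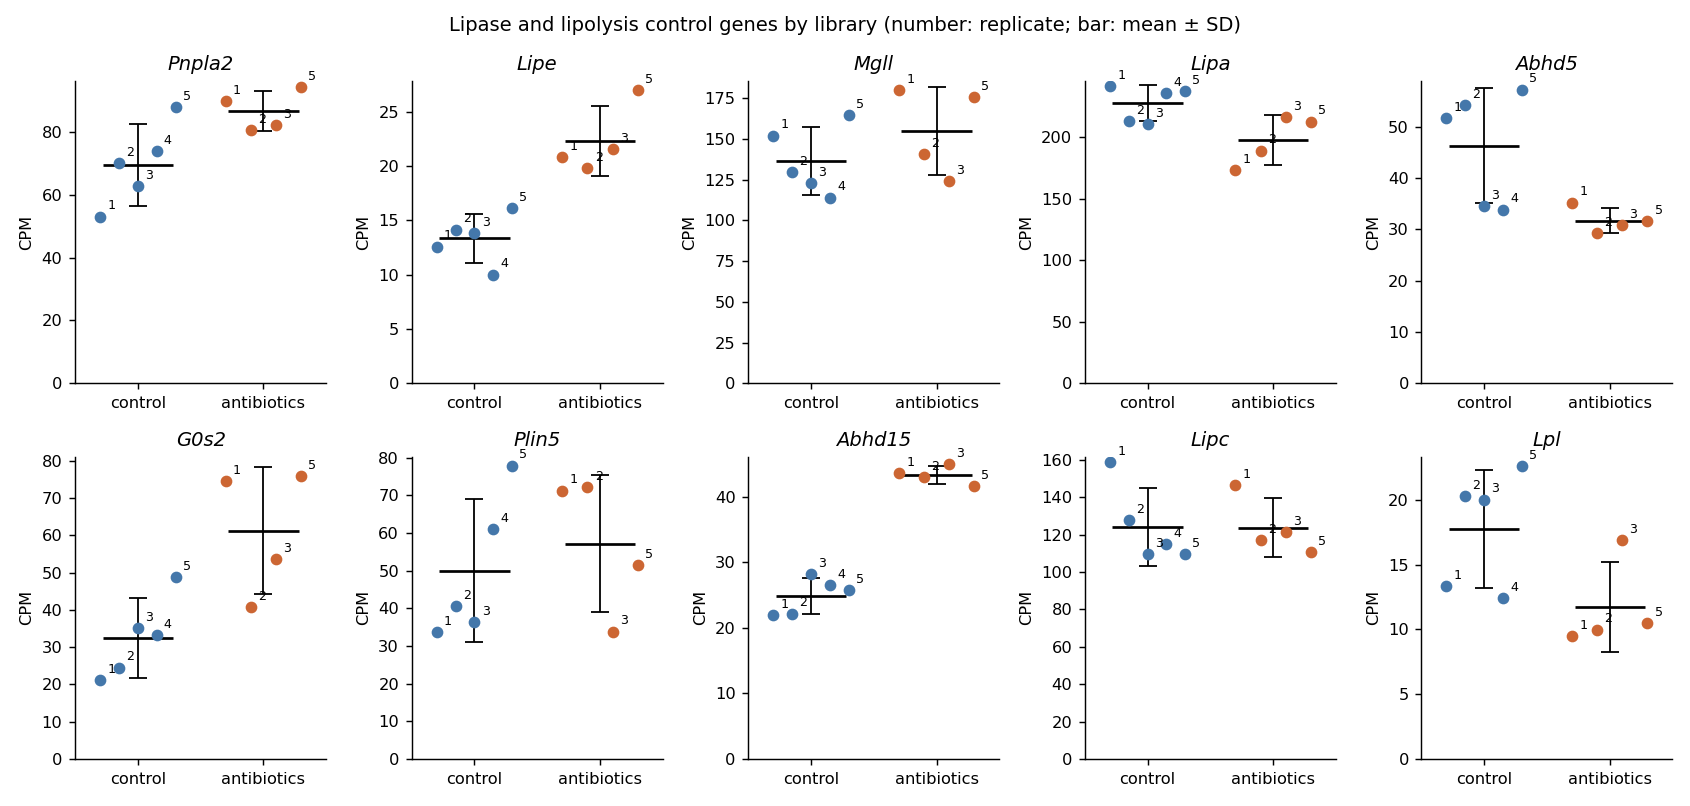
Normalised counts (CPM, linear axis from 0) of each of the 10 genes in every library, controls in blue and antibiotics in orange, with the replicate number beside each point, the mean as a horizontal line and the SD as whiskers. The groups are fully apart for Lipe and Abhd15 and share part of their range for the other 8 genes.

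Among the intracellular neutral lipases, Pnpla2 measured 53.1, 70.0, 62.7, 74.0 and 87.8 CPM in control libraries 1 to 5 and 89.9, 80.4, 82.2 and 94.1 CPM in antibiotics libraries 1, 2, 3 and 5. Control 5 lay among the antibiotics libraries and the other controls below all of them. Its log2 fold change was 0.32 ± 0.12 (SE, edgeR adjusted p = 0.199), so the initiating lipase was not called. Without control 5 it was 0.42 (edgeR adjusted p = 0.0588). Of the 9 edgeR fits leaving out 1 library 0 called Pnpla2, and the adjusted p rose to 0.371 without antibiotics 1.

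Lipe (ENSMUSG00000003123.15, chromosome 7, 25379527 to 25398710, GRCm38) measured 12.6, 14.2, 13.8, 10.002 and 16.1 CPM in the controls. The antibiotics libraries measured 20.8, 19.8, 21.5 and 27.0 CPM. Every antibiotics library was thus above every control, with the deepest one, antibiotics 5, the highest. The log2 fold change was 0.75 ± 0.13 (SE), a 1.68-fold rise (edgeR adjusted p = 0.0200). The groups did not overlap in 8.88% of all tested genes, and in 4.59% with antibiotics higher. The edgeR call was lost without antibiotics library 1, 3 or 5 (adjusted p = 0.0594, 0.0603 and 0.0695), where the log2 fold change stayed between 0.64 and 0.78.

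Mgll, the enzyme of the last step, ranged from 114 to 165 CPM in controls and from 124 to 180 CPM with antibiotics. Its groups overlapped widely (log2 fold change 0.18 ± 0.13, edgeR adjusted p = 0.505). Of the neutral lipases, the middle enzyme of the cascade was therefore the one called, though whether its change differed from that of the others was not tested.

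The control proteins of Pnpla2 measured in opposite directions, although edgeR called neither. The inhibitor G0s2 had the largest fold change of the 10, with 21.3, 24.5, 35.1, 33.2 and 48.7 CPM in the controls and 74.6, 40.8, 53.6 and 76.0 CPM with antibiotics. Antibiotics 2 lay below control 5 and the other 3 antibiotics libraries above all controls. The log2 fold change was 0.92 ± 0.24 (SE, edgeR adjusted p = 0.0669), and G0s2 varied more between libraries of 1 group than Lipe or Abhd15, with a coefficient of variation of 32.9% in controls and 27.9% with antibiotics. DESeq2 called G0s2 higher (adjusted p = 0.00557), as did edgeR without control 5 (0.0286) and without a filter on low counts (0.0404), where 1.38% of 27052 genes were called. The fit without control 5 called 455 of 14974 genes. It was the 1 of 9 edgeR fits leaving out 1 library that called G0s2, and the adjusted p rose to 0.184 without antibiotics 5.

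The activator Abhd5 measured 51.7, 54.2, 34.5, 33.9 and 57.3 CPM in control libraries 1 to 5 and 35.2, 29.3, 30.8 and 31.6 CPM with antibiotics. The controls fell into a higher trio (1, 2 and 5) and a lower pair (3 and 4), and 3 of the 4 antibiotics libraries lay below all of them. On the log2 scale the difference was -0.55 ± 0.16 (SE, edgeR adjusted p = 0.0968). DESeq2 called it lower (adjusted p = 0.0242), as did edgeR without control 3 (0.0476), where 451 of 14774 genes were called. That fit was the 1 of 9 edgeR fits leaving out 1 library that called Abhd5, and the adjusted p rose to 0.213 without antibiotics 3. DESeq2 called 6.68% of its 14608 genes with an adjusted p.

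Plin5, the coat protein of oxidative tissues, spread over the same range in both groups, from 33.7 to 77.9 CPM in controls and from 33.8 to 72.1 CPM with antibiotics (log2 fold change 0.19 ± 0.27, edgeR adjusted p = 0.758). Controls 4 and 5 and antibiotics 1 and 2 were high, and the rest lower. It had the widest relative spread of the 10 in both groups, 38.02% and 31.9%.

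Abhd15, an alpha/beta-hydrolase fold protein known in fat cells as a partner of the cAMP-degrading enzyme Pde3b in the insulin-dependent brake on lipolysis, was the most uniform of the 10 within the antibiotics group. It measured 21.9, 22.1, 28.1, 26.5 and 25.7 CPM in the controls and 43.6, 43.0, 44.9 and 41.6 CPM with antibiotics. The lowest antibiotics library stood above the highest control by more than the whole range of either group. The log2 fold change was 0.80 ± 0.08 (SE), a 1.74-fold rise (ENSMUSG00000000686.11, chromosome 11, 77515121 to 77538607, edgeR adjusted p = 0.00293). The call held in all 9 fits that left out 1 library (adjusted p from 0.00234 to 0.0184). Its partner Pde3b had a log2 fold change of 0.14 ± 0.09 (edgeR adjusted p = 0.450).

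Exons of Lipe and Abhd15 overlap genes on the opposite strand, and no source used here states whether counting used the strand. The partner of Lipe, 4732471J01Rik, reached at most 0.399 CPM in any library. Of the partners of Abhd15, Gm10392 had 0 counts in every library, Trp53i13 ranged from 0.889 to 2.61 CPM, and Taok1 had 41.4 ± 6.70 CPM in controls and 42.7 ± 3.89 CPM with antibiotics. Neither tested partner was called by edgeR (adjusted p = 0.0632 for Trp53i13 and 0.894 for Taok1). Trp53i13 nevertheless measured higher with antibiotics, at 1.26 ± 0.366 and 2.27 ± 0.389 CPM (log2 fold change 0.87 ± 0.22). In 3 of the 4 antibiotics libraries it was above all controls. The part of opposite-strand reads in the counts of Abhd15 was not tested. No member shared 200 nt at 95% identity with another gene, apart from Abhd15 with Gm10392 and Abhd5 with A730085K08Rik, which overlap them and had 0 counts.

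The lysosomal and the extracellular lipases were not called. Lipa ranged from 211 to 241 CPM in controls and from 173 to 216 CPM with antibiotics, where libraries 1 and 2 lay below all controls (log2 fold change -0.20 ± 0.09, edgeR adjusted p = 0.234). Lipc, the hepatic lipase secreted by hepatocytes, had nearly equal means of 124 ± 20.8 and 124 ± 15.7 CPM (log2 fold change -0.01 ± 0.12, edgeR adjusted p = 0.988). Its interval of 1 SE on either side spans 0, and the sign of its estimate turned in several alternative fits.

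Lpl, the lipase of capillary walls in muscle and fat, measured 13.3, 20.3, 20.02, 12.4 and 22.6 CPM in the controls and 9.48, 9.98, 16.9 and 10.5 CPM with antibiotics. Antibiotics library 3 lay within the control range and the other 3 below it. On the log2 scale the difference was -0.60 ± 0.22 (SE, edgeR adjusted p = 0.169), and -0.82 without antibiotics 3 (adjusted p = 0.0964). Of the 9 edgeR fits leaving out 1 library 0 called Lpl, and the adjusted p rose to 0.357 without antibiotics 1.

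**Figure D2:**
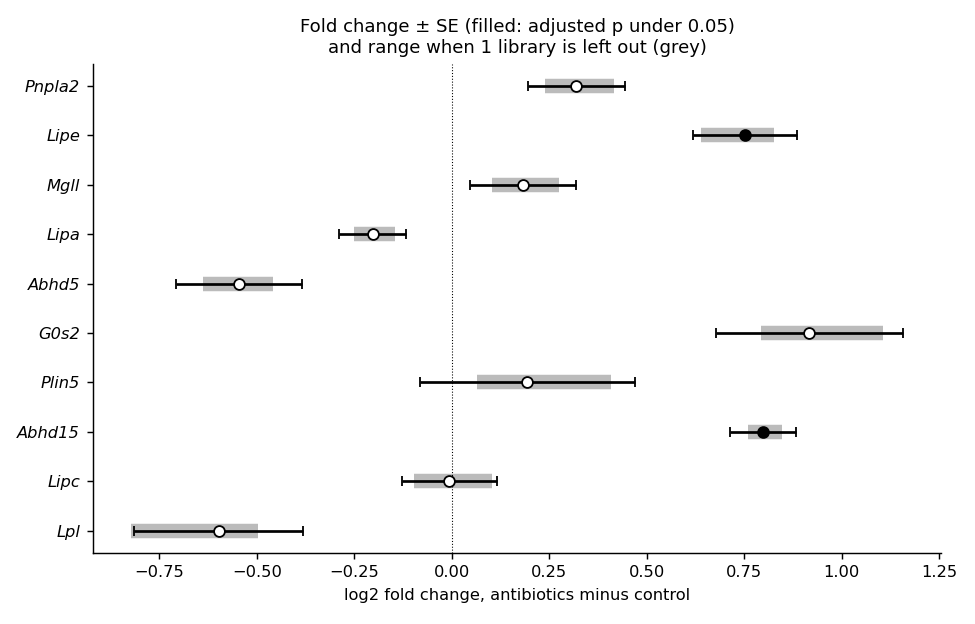
Log2 fold change of antibiotics against control for the 10 genes (points, with SE whiskers, filled where edgeR's adjusted p was under 0.05) and, as grey bars, the range of the estimate over the 9 fits that left out 1 library. The bars of Lipe and Abhd15 run from 0.64 to 0.83 and from 0.76 to 0.85, while that of Lipc crosses 0.

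Members of this set, Lipe, Abhd15, Lpl, Plin5 and G0s2 among them, are abundant in white or brown fat, so adipocyte markers were read in each library. The defining marker Adipoq had 17 counts in antibiotics 3, 4 counts in control 5 and 0 in the other 7 libraries, and Ucp1 had 15 counts in control 5. Control 5 was the highest control for 7 of the 10 members and the lowest for Lipc. Antibiotics 3 was the highest antibiotics library for Abhd15, Lipa and Lpl and the lowest for Mgll and Plin5. Over all 12 markers the summed level was 11.3 to 14.35 CPM in controls and 14.97 to 18.1 CPM with antibiotics, so these ranges did not overlap. Of the 12, 4 were tested and 0 called by edgeR, and Slc7a10 was at 0 counts in every library. Most of the sum came from Fabp4 (means 7.11 in controls and 7.35 CPM with antibiotics), Adrb3 (3.50 and 4.12), Cidec (1.55 and 3.02) and Cfd (0.393 and 0.972). Plin1, Lep and Retn stayed at or below 0.276 CPM in every library. Cidec is also read below as a droplet gene. How often sums of other genes separate the groups was not computed.

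In antibiotics 1, 2 and 5, where Adipoq had 0 counts, Lipe measured 19.8 to 27.0 CPM and Abhd15 41.6 to 43.6 CPM. The summed markers were 14.97, 15.1 and 15.2 CPM in these libraries, above every control sum. A count of 0 there allows up to 3 counts, or 0.195, 0.167 and 0.0507 CPM (antibiotics 1, 2 and 5), for counting error only. With control 5 and antibiotics 3 both left out, an alternative chosen after seeing the data, Abhd15 had a log2 fold change of 0.79 (edgeR adjusted p = 0.0243) and Lipe of 0.85 (adjusted p = 0.0508), where 0.355% of tested genes were called. The part of fat tissue in the values of Lipe, Abhd15 and the other members was not tested.

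Macrophages express Lipa and Lpl, and 8 Kupffer cell and macrophage markers summed to 161 to 486 CPM in controls and 164 to 211 CPM with antibiotics. The highest sum was that of control 2 and the next, 229.6 CPM, that of control 1. By edgeR 0 of the 8 were called. In control 2, Lpl was 20.3 CPM in a control range of 12.4 to 22.6 CPM, and Lipa 213 CPM in a control range of 211 to 241 CPM. The part of macrophages in the Lpl and Lipa values was not tested. Hepatocyte markers summed to between 80520 and 95824 CPM in all 9 libraries, which carry the label liver. Pancreatic acinar markers summed to at most 0.553 CPM, and the pancreatic lipases Pnlip and Cel were at 0 counts throughout. Mitochondrially encoded mRNAs, read as a sign of RNA quality, summed to 44895 to 65301 CPM in controls and 49480 to 73733 CPM with antibiotics. Their part in the members' values was not tested. In bulk tissue, fewer cells of a type and less RNA per cell cannot be told apart.

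Levels of different genes were compared as CPM per kilobase of annotated exon. In controls the highest were Lipc (57.7 ± 9.68), G0s2 (37.4 ± 12.3) and Lipa (33.6 ± 2.14), then Mgll (26.9 ± 4.14), Plin5 (23.9 ± 9.10) and Pnpla2 (23.0 ± 4.29). Neighbours in that order overlapped in range. A clear gap followed, to Abhd15 (8.20 ± 0.900) and Abhd5 (7.77 ± 1.89), and another to Lipe (2.27 ± 0.383) and Lpl (1.69 ± 0.436). Lipe was thus among the least abundant lipases in this tissue per length of transcript. With antibiotics Lipe reached 3.79 ± 0.544 and Abhd15 14.3 ± 0.454 CPM per kilobase, while G0s2 stood at 70.3 ± 19.6.

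The place of Abhd15 beside Abhd5 depended on the group. In controls their per-kilobase ranges overlapped, and with antibiotics Abhd15 (13.7 to 14.8) lay above Abhd5 (4.91 to 5.91) in every library. Measured per kilobase of the longest transcript in place of all annotated exon, Abhd5 (14.7 ± 3.56) exceeded Abhd15 (9.35 ± 1.03) in controls. With antibiotics the order on that scale was the reverse, at 10.1 ± 0.799 and 16.3 ± 0.517. The longest-transcript scale raised the level averaged over all libraries from 2.94 to 4.67 for Lipe, from 6.69 to 12.6 for Abhd5, from 31.6 to 55.0 for Lipa and from 1.44 to 3.66 CPM per kilobase for Lpl.

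The ratio of a regulator to Pnpla2 within a library does not depend on the library's scaling. The log2 ratio of Abhd5 to Pnpla2 counts was -0.04, -0.37, -0.86, -1.13 and -0.62 in controls 1 to 5. With antibiotics it was -1.35, -1.46, -1.42 and -1.57. Every antibiotics library was below every control, and the spread was smaller with antibiotics (SD 0.09 against 0.42). In linear terms there were 0.458 to 0.974 counts of the activator for each count of the lipase in controls and 0.336 to 0.392 with antibiotics.

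The log2 ratio of the inhibitor G0s2 to Pnpla2 was -1.32, -1.51, -0.84, -1.16 and -0.85 in controls and -0.27, -0.98, -0.62 and -0.31 with antibiotics. Antibiotics 2 lay within the control range and the other 3 above it. The mean difference was 0.59, against -0.85 for Abhd5 to Pnpla2. Both ratios were below 0 on the log2 scale in all 9 libraries, so counts of each regulator were fewer than those of Pnpla2. Counts are not set to gene length, and the order differs per kilobase of annotated exon for G0s2. On that scale G0s2 averaged 37.4 in controls and 70.3 with antibiotics, above Pnpla2 at 23.0 and 28.7. Abhd5 stayed below Pnpla2, at 7.77 and 5.33. The differences between the groups had opposite signs, as a description of these libraries without a test.

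Of the 5 ratios read, Abhd5 to Pnpla2 was the 1 without overlap, and the remaining ratios shared part of their range. Its terms had log2 fold changes of opposite sign (-0.55 for Abhd5 and 0.32 for Pnpla2), which widens the gap in their ratio. How often ratios of other genes separate the groups was not computed. Lipe to Pnpla2 had a mean log2 ratio of -2.38 ± 0.32 (SD, n = 5) in controls and -1.97 ± 0.13 (SD, n = 4) with antibiotics, with 3 of 4 antibiotics libraries above all controls. Plin5 to Pnpla2 measured -0.54 ± 0.29 and -0.66 ± 0.51, and Mgll to Pnpla2 0.98 ± 0.33 and 0.83 ± 0.17. Antibiotics 3 was the lowest of all libraries for each of these last ratios.

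**Figure D3:**
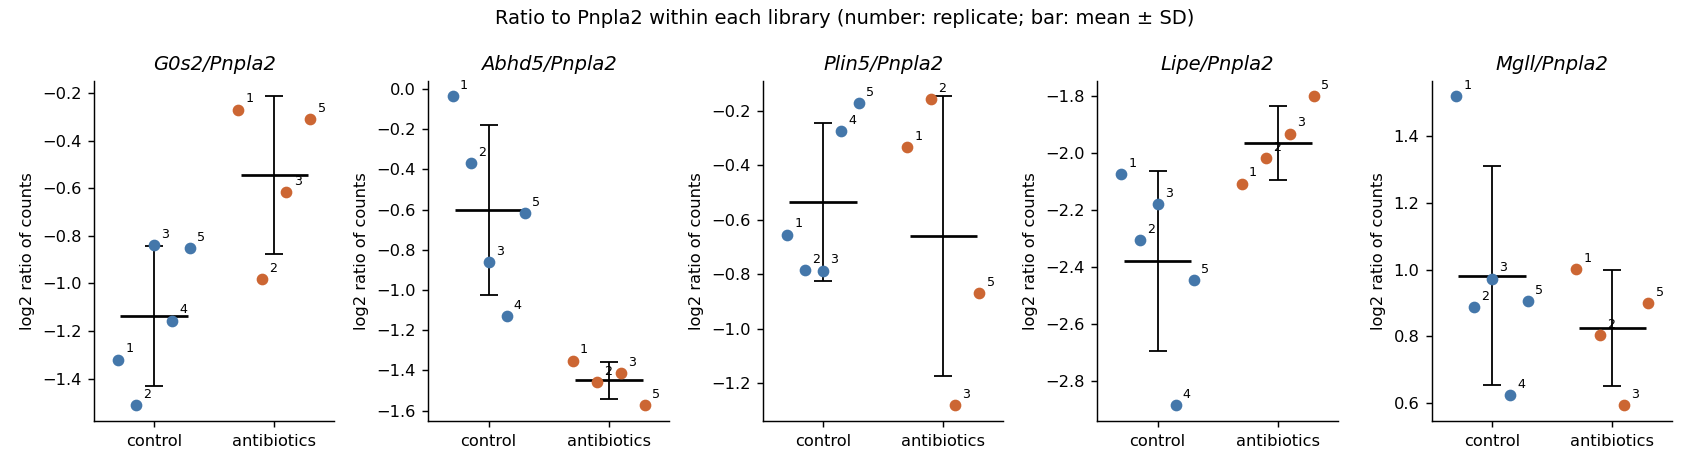
Log2 ratio of normalised counts of 5 genes to those of Pnpla2 within each library (points, with replicate numbers, mean line and SD whiskers; each panel has its own axis). The activator ratio, Abhd5 to Pnpla2, is lower in all 4 antibiotics libraries than in any control, and the inhibitor ratio, G0s2 to Pnpla2, is higher than in any control in 3 of 4. The share of other gene ratios without overlap was not computed.

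The rest of the pathway was read from 6 lists, 88 genes outside the 10, of which 84 were tested. By edgeR 0 were called higher and 1 was called lower, 17 had an unadjusted p under 0.05, and the median log2 fold change was -0.02. Over all tested genes 2.68% were called and 18.5% had an unadjusted p under 0.05. These shares are also the background for the counts of each list below. Groups did not overlap in 2 genes that were higher and 6 that were lower, against 4.59% and 4.29% of all tested genes. DESeq2 called 6 of the 85 it tested (Tfe3, Sqstm1, Ddhd1 and Prkaa2 lower, Abhd2 and Adcy6 higher). Its own background was 6.68% of 14608 genes. With limma-voom 1 of 84 was called, against 413 of all 14873 tested genes. The lists were chosen with earlier results of these data known.

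The called gene was Tfe3, a transcription factor that drives lysosomal and autophagy genes. It fell from 28.3 ± 1.70 to 21.2 ± 1.92 CPM (log2 fold change -0.42 ± 0.08, edgeR adjusted p = 0.0256), with all antibiotics libraries below all controls. The call was lost without control 2 or 4 or antibiotics 1, 3 or 5 (adjusted p from 0.0520 to 0.0831), after thinning to equal depth (0.0606) and without both libraries with Adipoq counts (0.0825). Its relative Tfeb measured 5.03 ± 0.586 and 6.66 ± 0.665 CPM, also without overlap but in the other direction (log2 fold change 0.41 ± 0.12, edgeR adjusted p = 0.0918). Sqstm1, an autophagy receptor, measured 312 ± 47.7 and 246 ± 6.98 CPM, lower without overlap (adjusted p = 0.114). Of 17 lysosomal genes, Tfe3 was the 1 called, and the list's median was -0.01.

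In the patatin-like family to which Pnpla2 belongs, 0 of 6 tested genes were called by edgeR, 2 had an unadjusted p under 0.05, and the median was -0.14. Pnpla3, the droplet protein that binds Abhd5 away from Pnpla2, measured 19.1, 12.3, 3.83, 6.80 and 5.03 CPM in controls and 2.03, 5.80, 3.15 and 1.95 CPM with antibiotics. Its controls ranged so widely that a log2 fold change of -1.59 ± 0.50 had an edgeR adjusted p of 0.113. Pnpla5 likewise had controls 1 and 2 highest, at 9.65 and 8.503 CPM (log2 fold change -1.10 ± 0.48, adjusted p = 0.248). Pnpla7, a lysophospholipase, measured 171 ± 19.3 and 154 ± 7.47 CPM.

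Among 13 tested droplet coat and CIDE proteins 0 were called by edgeR, 3 had an unadjusted p under 0.05, and the median was 0.13. Cidec, which fuses droplets, measured 0.667, 1.19, 1.07, 1.27 and 3.56 CPM in controls and 3.14, 2.45, 2.10 and 4.40 CPM with antibiotics. Control 5, the control with Adipoq counts, stood apart from the other controls. With all libraries Cidec had an edgeR adjusted p of 0.217 (log2 fold change 1.03 ± 0.42), and without control 5 it was called higher (1.55, adjusted p = 0.0235). That was the 1 of 9 edgeR fits leaving out 1 library that called Cidec, and the adjusted p rose to 0.474 without antibiotics 5. Fitm1, which partitions triglyceride into droplets, measured 9.56 ± 3.08 and 14.7 ± 2.16 CPM (edgeR adjusted p = 0.157). The droplet enzyme Hsd17b13 measured 366 ± 29.1 and 324 ± 11.5 CPM, lower without overlap (edgeR adjusted p = 0.258).

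Of 18 tested other glycerolipid hydrolases 0 were called by edgeR, 3 had an unadjusted p under 0.05, and the median was -0.02. The phospholipase Ddhd1 was nearest, at 16.3 ± 1.62 and 12.4 ± 0.974 CPM with no overlap (log2 fold change -0.39 ± 0.09, adjusted p = 0.0531). Abhd6, another monoacylglycerol hydrolase, measured 20.3 ± 2.22 and 24.6 ± 1.60 CPM, also without overlap (0.28 ± 0.09, adjusted p = 0.133). Abhd2 measured 61.7 ± 10.1 and 88.1 ± 20.7 CPM (adjusted p = 0.107).

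Among 12 cofactors and inhibitors of lipoprotein lipase 0 were called by edgeR, 2 had an unadjusted p under 0.05, and the median was -0.02. Apoa5, which promotes lipolysis by Lpl, measured 997 ± 158 and 1232 ± 123 CPM (adjusted p = 0.215). Angptl4, which inhibits Lpl, measured 145 ± 13.6 and 125 ± 16.9 CPM, with a log2 fold change of -0.22 ± 0.10 (adjusted p = 0.271).

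Among 18 tested genes of adrenergic, cAMP and insulin control 0 were called by edgeR, 3 had an unadjusted p under 0.05, and the median was -0.05. Prkaa2, a catalytic subunit of the energy-sensing kinase AMPK, measured 67.9 ± 3.18 and 56.4 ± 2.86 CPM with no overlap (log2 fold change -0.27 ± 0.06, adjusted p = 0.0531). The other catalytic subunit, Prkaa1, measured 12.8 ± 0.492 and 11.0 ± 1.10 CPM, also without overlap (adjusted p = 0.187). The adenylate cyclase Adcy6 measured 28.3 ± 3.84 and 37.7 ± 6.27 CPM (adjusted p = 0.0945).

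**Figure D4:**
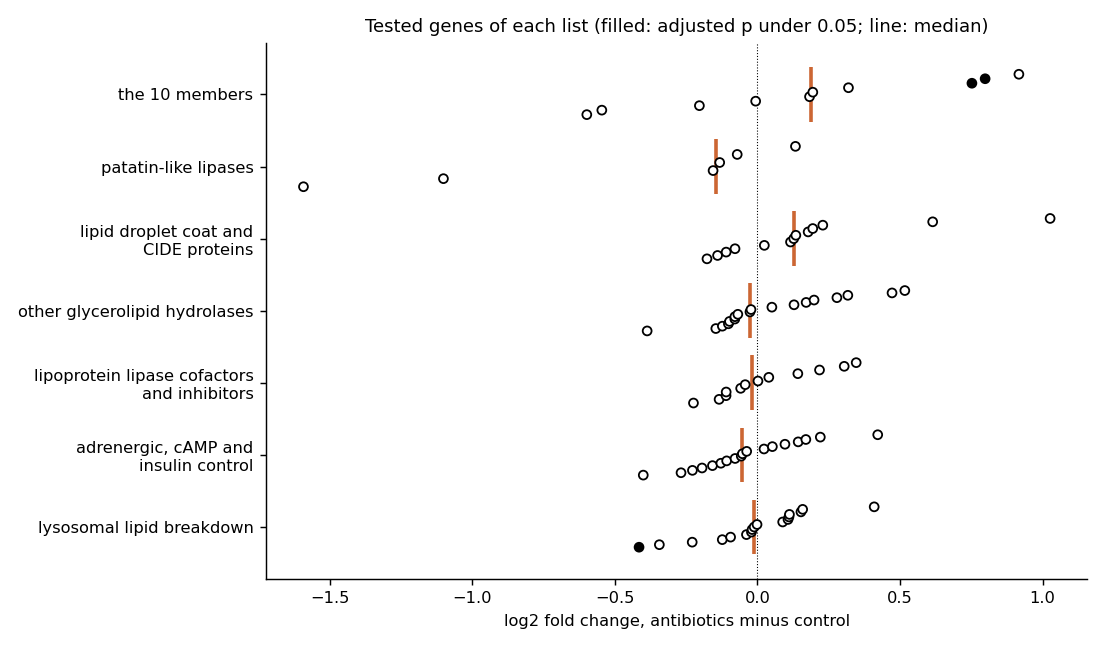
Log2 fold change, antibiotics against control, of every tested gene in the set of 10 and in 6 lists of related genes (1 point a gene, filled where edgeR's adjusted p was under 0.05, orange line at the median). Filled points are Lipe and Abhd15 among the 10 and Tfe3 among the lysosomal genes; list medians lie between -0.14 and 0.19.

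The genes whose levels followed Lipe most closely over the 9 libraries, among 12459 genes of at least 1 CPM, were Pold4 (Pearson r = 0.98 on log2 CPM), Map2k3 (r = 0.97) and Mapk14 (r = 0.97). Pold4 encodes a DNA polymerase subunit, and Map2k3 and Mapk14 encode a kinase and its p38 substrate. Those closest to Abhd15 were the nucleosome-binding protein gene Hmgn2 (r = 0.99), D5Ertd579e (r = 0.97) and Bckdhb, a subunit of branched-chain ketoacid dehydrogenase (r = 0.97). All 6 were higher in every antibiotics library than in every control, so the likeness includes the group difference, and the points share library depth and scaling. Bckdhb measured 44.7 ± 1.08 and 54.7 ± 2.12 CPM (log2 fold change 0.29 ± 0.06, edgeR adjusted p = 0.0322), a smaller difference than that of Abhd15.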

How the data were processed

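Liver RNA was extracted with Trizol and RNeasy columns and made into stranded poly(A) libraries, per the labels' protocols. The authors deposited estimated counts per gene (expected counts, made with Salmon on the GRCm38 build per the submitters' processing notes), 1 column per library, already rounded to whole numbers. For versions, settings, annotation and strand use the sources used here say nothing. All 54393 gene identifiers occur in GENCODE M21, which gave symbols, positions and exon lengths. Promoter windows came from RefSeq (GRCm38.p6), with windows for 9 of the 10 genes. Protein sequences were not used here.

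Groups and replicate numbers came from the titles. Genes were kept by filterByExpr (minimum count 10, minimum total 15) of edgeR 4.0.16 in R 4.3.3, scaled by TMM and fitted with group as the only term by the quasi-likelihood F test on all 9 libraries. The SE is the log2 fold change divided by the square root of F. The script was tested on simulated data. DESeq2 1.42.0, limma 3.58.1 (voom), other scalings and filters, thinning, a block on replicate numbers and fits without 1 library were alternatives. Close copies were searched with BLAST+ 2.17.0. Libraries of a group all differed beyond sampling noise (lowest chi-square per degree of freedom 20.2). Nothing says that they came from separate animals, so p-values reflect only library-to-library spread, which may be technical.

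The 10 genes, the pathway and marker lists and the motifs were chosen with earlier results of these data known. The genes named from each list are those called and the 3 with the smallest p, and Pde3b was chosen after its values were seen. The values of 1 such gene are not reported here. For likeness, the 3 genes of at least 1 CPM with the highest Pearson r to Lipe and to Abhd15 on log2 CPM (prior count 2) are named. A library with 0 counts of a marker limits only what this depth can show.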

Additional observations from a re-analysis of the deposited data

Results flagged for a closer look

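Of 66 sets of libraries checked for a value far from the rest of its group, 3 held such a value, and chance alone gives about 1 in 20. Lpl in antibiotics library 3 was 16.9 CPM, where the other antibiotics libraries had 9.48 to 10.5 CPM. That library also had the most Adipoq counts (17). Cidec in control 5 was 3.56 CPM, where the other controls had 0.667 to 1.27 CPM, and control 5 had 4 Adipoq and 15 Ucp1 counts. Prkaa1 in control 3 was 13.7 CPM, where the other controls had 12.4 to 12.7 CPM. The part of fat tissue in the Lpl and Cidec values was not tested.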

How the results depend on the processing

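Over all genes, 398 were called, 976 with DESeq2, 55 without both libraries with Adipoq counts (an alternative chosen after seeing the data) and 36 to 455 when 1 library was left out. Of the 10 genes, 2 were called, 4 with DESeq2 (also G0s2 and Abhd5), 1 without both libraries with Adipoq counts and 1 to 3 when 1 library was left out. Of the pathway genes 1 was called (Tfe3), 2 with RLE size factors, 3 with library sizes that omit the 10 most abundant genes, 3 with a filter at 1 CPM on average, 6 with DESeq2, 1 (Cidec in place of Tfe3) without both libraries with Adipoq counts and 0 to 3 when 1 library was left out. No scaling moved the median of all genes by more than 0.05. The log2 fold change of Lipc, -0.01, was 0.0089 with limma-voom, 0.013 after thinning and -0.10 to 0.10 when 1 library was left out. Per kilobase of the longest transcript, levels over all libraries were 4.67 (Lipe), 12.6 (Abhd5), 36.3 (Mgll), 55.0 (Lipa) and 3.66 (Lpl). The smallest libraries, with 15422891 to 18504624 counts, limit the markers most.

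Replicate numbers are shared between groups, but deviations from the group means correlated at -0.00, -0.06, 0.03 and 0.10 for numbers 1, 2, 3 and 5, so they were not taken as pairs, and 2 of the 4 antibiotics libraries correlated best with their own number. With a replicate block edgeR called 169 genes over all and kept Lipe (0.65, adjusted p = 0.0290) and Abhd15 (0.83, adjusted p = 0.0276).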

Other observations

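Levels of several of the 10 genes were extreme in the same library. Control 5 was the highest control for 7 of the 10 (Lipe, Pnpla2, Abhd5, G0s2, Mgll, Lpl and Plin5). Control 1 was the lowest control for Abhd15, Pnpla2, G0s2 and Plin5, and control 4 for Lipe, Abhd5, Mgll and Lpl. Among the antibiotics libraries, library 2 was the lowest for Lipe, Pnpla2, Abhd5 and G0s2, and library 5 the highest for Lipe, Pnpla2 and G0s2.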
